A study of Homo sapiens with 6 samples.

Results

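The connexins GJA1, GJB2, GJB5, and GJB6 were followed in oral squamous cell carcinoma (OSCC) cells after knockdown of the long noncoding RNA DLEU1. The members are the probes that the scanner files assign to these 4 gene names, which gave 4 probes, 1 for each gene, among 50599 probes and 36337 gene names on the array. RNA was taken from HSC-3, KON, and Ca9-22, established OSCC cell lines, 72 h after transient transfection with siDLEU1-2, an siRNA against DLEU1, or with a control siRNA (siCtrl). Each line and siRNA gave 1 one-color Agilent array, 6 in all, and siDLEU1-2 was the only siRNA against DLEU1 on the arrays. The 3 lines are therefore the only replicates of the siRNA comparison, and no change within a line has an error of its own.

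Connexins are the membrane proteins of gap junctions. Several connexins assemble into a hemichannel, and hemichannels of adjacent cells dock to form a channel that passes ions and small metabolites. GJA1 encodes Cx43, the most widely expressed connexin of skin and mucosa. GJB2 encodes Cx26 and GJB6 encodes Cx30, which are expressed in stratified epithelia and in the inner ear and can form mixed channels. GJB5 encodes Cx31.1, a connexin of keratinocytes.

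The 19956 probes kept were those with at least 50% of spots well above background on 1 or more arrays of every line. The processed signal of a spot is its brightness after background subtraction by the scanner software. Levels are log2 processed signals minus the 75th percentile of the array. That percentile lay between 200 and 257 on the 6 arrays, and 43.0% to 45.7% of probes were well above background. The probes of GJA1, GJB2, and GJB5 were kept, and that of GJB6 was not. DLEU1 itself fell, with log2 fold changes of -4.10, -3.63, and -3.44 for HSC-3, KON, and Ca9-22 (mean -3.72, adjusted p = 0.0227 from limma). All 10 probes for basal keratinocyte markers were well above background on the 3 siCtrl arrays, while 3 to 7 of 11 suprabasal probes were so on an array. Of the probes for cells outside the epithelium, 5 of 7 for fibroblasts, 4 of 8 for endothelium, 4 of 8 for leukocytes, and 3 of 6 for melanocytes were well above background on no array. Of the others, the probes of COL1A1, CD14, and PMEL were so on all 6 arrays, and 1 each of VWF and CDH5 on 5. The summed signal of the leukocyte probes was 10513 and 13014 on the HSC-3 arrays, against 184 to 528 on the other arrays.

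The siRNA and the GJB6 probe are shown because the changes rest on 1 siRNA and each connexin value on 1 probe. In the antisense strand of siDLEU1-2, the capitals mark the seed, bases 2 to 8, and in the probe they mark the longest run shared with a probe of any other connexin or pannexin.
siDLEU1-2 antisense: uUAAGUGCgauaaccccugua
GJB6 probe: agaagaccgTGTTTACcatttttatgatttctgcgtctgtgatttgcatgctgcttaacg
The GJB6 probe covers chr13:20797001-20797060 of hg19 on the minus strand and reads transcript NM_006783, in its coding sequence. The GJB5 probe reads NM_005268, from chromosome 1. The probes of GJB2 (chr13:20761915-20761974, minus strand, NM_004004) and GJA1 (chr6:121770327-121770386, plus strand, NM_000165) lie in the 3′ untranslated part of their transcripts. Each probe has 60 bases, and the longest run shared with another of the 29 connexin and pannexin probes was 9 bases for GJB5, 8 for GJB2 and GJA1, and 7 for GJB6. The heptamer complementary to the siRNA seed, GCACTTA, was in none of the 29 probes and in 57 of the 19956 probes kept. Parts of the transcripts outside the probes were not searched.

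GJB2 was lower after siDLEU1-2 in each line, and it was the connexin with the widest range between lines. In HSC-3, siCtrl gave a processed signal of 2300 and siDLEU1-2 one of 433. In KON, the signals were 294 and 133. In Ca9-22, they were 28.9 and 8.02. The knockdown array was the lower one in every line, but the lines themselves did not overlap, so that the HSC-3 knockdown array was still brighter than the siCtrl arrays of KON and Ca9-22. For HSC-3, KON, and Ca9-22, these are log2 fold changes of -2.29, -1.07, and -1.80, of which the last rests on an array not well above background. GJB2 was thus 4.89-fold lower in HSC-3, 2.11-fold lower in KON, and at least 1.12-fold lower in Ca9-22. The mean was -1.72 ± 0.61 (SD, n = 3 cell lines; 95% interval -2.42 to -1.03; adjusted p = 0.0346 from limma) with the dim Ca9-22 value as measured. When such dim values were set at the detection floor, the dimmest signal well above background on an array, the mean was -1.18 (adjusted p = 0.138 from limma) and the call was lost. In bulk RNA, fewer cells of a type and less RNA per cell cannot be told apart.

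**Figure D1:**
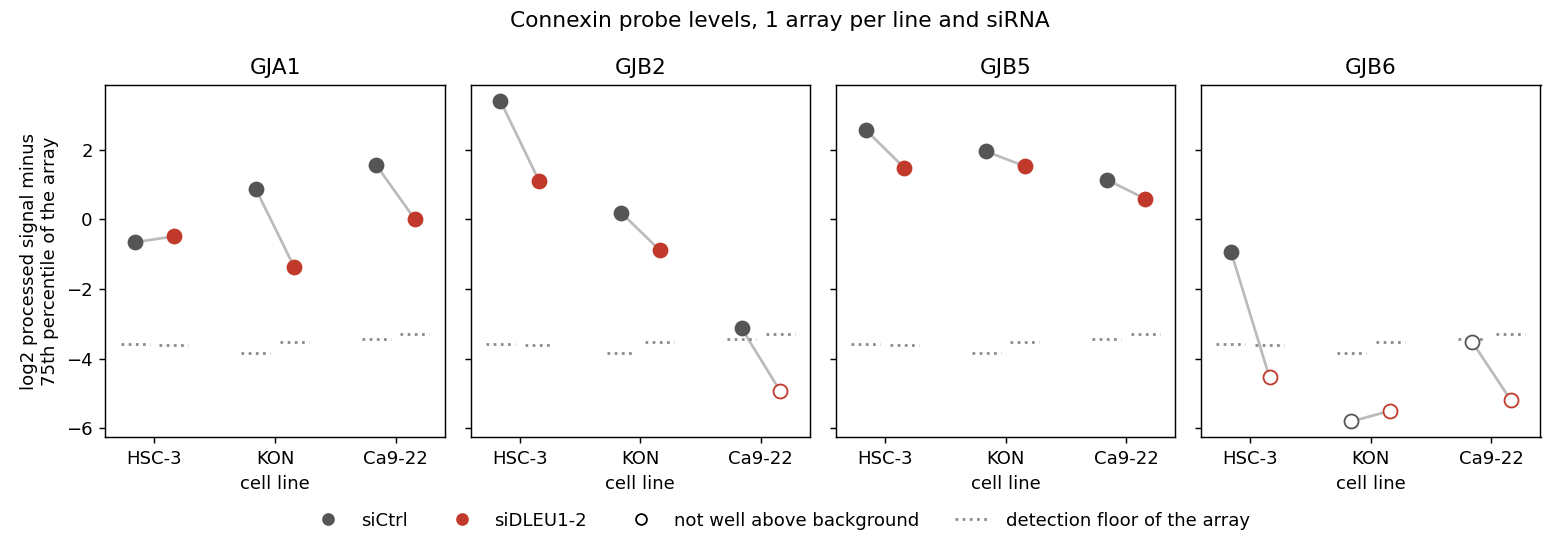
Level of each connexin probe on the 6 arrays, as log2 processed signal minus the 75th percentile of the array (vertical axis), by cell line (horizontal axis). Gray points are siCtrl and red points siDLEU1-2, open points were not well above background, and dotted lines mark the detection floor of each array. GJB2 descends from HSC-3 to Ca9-22, GJA1 is lower with siDLEU1-2 in KON and Ca9-22 but not in HSC-3, and GJB6 has a single filled point, HSC-3 siCtrl.

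With dim values as measured, GJB2 was the only connexin of the 4 that limma called and the only one more than 2-fold lower in all 3 lines. At the floor, limma called 0 of the 4, and 0 were more than 2-fold lower in all lines. Over all probes kept, limma called 4.52% lower and 3.98% higher at an adjusted p below 0.05. More than 2-fold in all lines, 2.08% were lower and 2.08% were higher. No connexin of the 4 was called higher by limma or was more than 2-fold higher in all lines. The median log2 fold change of the 3 connexin probes kept was -1.21, against 0.01 over all probes kept.

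The GJB2 probe is printed 10 times on each array, which shows how firmly each array measured it. In HSC-3, the spots ran from 2161 to 2408 after siCtrl and from 399 to 460 after siDLEU1-2. In KON, they ran from 274 to 307 and from 122 to 151. In Ca9-22, they ran from 21.8 to 39.5 and from 5.78 to 18.9. Within each line, no spot of one array reached a spot of the other. The spots of an array share 1 RNA sample, so this covers error within an array and not between cultures. Their SD was 0.05 to 0.11 on the log2 scale in HSC-3 and KON, but 0.28 and 0.58 on the Ca9-22 arrays.

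**Figure D2:**
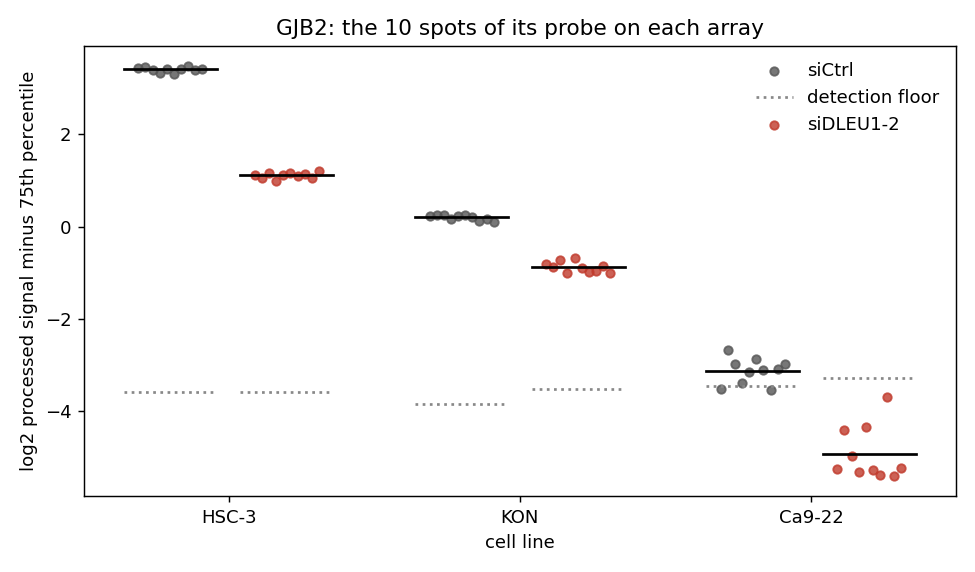
The 10 spots of the GJB2 probe on each array, as log2 processed signal minus the 75th percentile (vertical axis), by cell line (horizontal axis). Points are spots, black lines the value of the probe, and dotted lines the detection floor. The siCtrl and siDLEU1-2 spots separate in every line, but in Ca9-22 all 10 siDLEU1-2 spots lie under the floor.

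The Ca9-22 value of GJB2 is a bound. Of its 10 spots there, 6 were well above background after siCtrl and 0 after siDLEU1-2. With normexp background correction, the mean was -1.10 on the log2 scale (adjusted p = 0.107 from limma), and the call was lost as it was at the floor. In HSC-3 and KON, where all 10 spots were well above background on each array, neither the floor nor the filter changes the fall. The call was also lost without any one line, with adjusted p = 0.101 without HSC-3, 0.103 without KON, and 0.0968 without Ca9-22, and log2 means of -1.44, -2.04, and -1.68.

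GJB5 was lower after siDLEU1-2 in each line without passing the test. HSC-3 had processed signals of 1294 after siCtrl and 560 after siDLEU1-2, KON had 994 and 705, and Ca9-22 had 555 and 367. All 6 arrays were well above background, and the groups overlap, since the KON and HSC-3 knockdown arrays exceeded the Ca9-22 siCtrl array. The log2 fold changes of the lines, in the same order, were -1.09, -0.42, and -0.55. The mean was -0.69 ± 0.35 (SD, n = 3 cell lines; 95% interval -1.18 to -0.20; adjusted p = 0.0916 from limma). The unadjusted p was 0.0161. The probe is 1 spot on each array, with an error estimated by the scanner software at about 10% of the signal.

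GJA1 had lower values after siDLEU1-2 in KON and Ca9-22, by 4.75-fold and 2.94-fold, and not in HSC-3. HSC-3 had processed signals of 138 after siCtrl and 143 after siDLEU1-2, KON had 472 and 94.5, and Ca9-22 had 743 and 244. The 3 siDLEU1-2 arrays overlap the siCtrl arrays, since the Ca9-22 knockdown array was brighter than the HSC-3 siCtrl array. In the order HSC-3, KON, and Ca9-22, the log2 fold changes were 0.17, -2.25, and -1.56, and their mean was -1.21 ± 1.24 (SD, n = 3 cell lines; 95% interval -2.49 to 0.06; adjusted p = 0.185 from limma). Without HSC-3, the mean of the other lines was -1.90 (adjusted p = 0.0827 from limma). It was -0.70 without KON and -1.04 without Ca9-22 (adjusted p = 0.456 and 0.405 from limma). All 6 arrays measured it well above background. Whether the change differed between lines was not tested, because each line has 1 array per siRNA.

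GJB6 was measured on a single array. Its processed signal in HSC-3 was 115 after siCtrl, well above background, and 8.66 after siDLEU1-2, not well above background. Against the detection floor of that array, it was at least 6.37-fold lower. In KON the signals were 4.61 and 5.42, and in Ca9-22 22.1 and 6.71, none of them well above background. GJB6 was therefore not among the probes tested, and no change in KON or Ca9-22 is given.

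Levels in the lines were compared with the siRNA as the other term of the same limma fit. GJB2 and GJB5 differed between the lines, at adjusted p = 0.00457 and 0.0269 in the F-test of the line, and GJA1 missed the threshold at 0.196. Of all probes kept, 53.8% differed by this test, so 2 of 3 connexins is near the background.

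The order of GJB2 was HSC-3, KON, and Ca9-22. The mean levels of HSC-3 and KON were 2.26 and -0.34 on the log2 scale, and that of Ca9-22 was at most -3.21, with its dim siDLEU1-2 array set at the detection floor. KON was 6.05-fold below HSC-3 (adjusted p from limma = 0.00912 with dim values as measured and 0.0181 with dim values at the floor). Ca9-22 was at least 44.1-fold below HSC-3 and at least 7.29-fold below KON, at adjusted p = 0.00444 and 0.0153 in limma with dim values at the floor. Every neighboring pair in this order differed. The distance between the outer lines, at least 5.46, was larger than the fall within HSC-3, 2.29, on the log2 scale.

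GJB5 had the same order, with mean levels of 2.03, 1.74, and 0.87. Ca9-22 was 2.24-fold below HSC-3 (adjusted p = 0.0216) and 1.83-fold below KON (adjusted p = 0.0447). HSC-3 and KON, at a log2 difference of -0.29 (adjusted p = 0.359), were not separated by the test. GJA1 had the opposite order, with mean levels of 0.78 in Ca9-22, -0.25 in KON, and -0.57 in HSC-3. No pair of lines passed the test for GJA1, with adjusted p from 0.137 to 0.689. By these pairwise tests with dim values as measured, 36.2% of all probes kept differed between KON and HSC-3. The share was 36.6% between Ca9-22 and HSC-3 and 33.2% between Ca9-22 and KON.

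After siCtrl alone, GJA1 and GJB2 ran in opposite order across the lines. Going from HSC-3 to KON and Ca9-22, the GJA1 signal was 138, 472, and 743, and the GJB2 signal 2300, 294, and 28.9. After siDLEU1-2, GJA1 was lowest in KON. With 3 lines, no correlation is given.

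GJB5 lies in a connexin cluster on chromosome 1, GJB2 and GJB6 lie in another on chromosome 13, and GJA1 is on chromosome 6. GJA4, a connexin of blood vessels near GJB5, was well above background on no array. In the RefSeq gene table, GJB2 lies between GJA3 and GJB6. GJA3, known as a lens connexin, was well above background on 3 of the 6 arrays and was not among the probes tested. Its signal went from 128 to 28.1 on the HSC-3 arrays, from 49.5 to 10.6 on those of KON, and from 24.0 to 10.5 on those of Ca9-22. In HSC-3 both arrays were well above background, and the log2 fold change was -2.07. In KON GJA3 was at least 2.21-fold lower, and in Ca9-22 neither array was well above background. In HSC-3, the signals of all 3 connexins of this cluster were thus lower after siDLEU1-2.

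**Figure D3:**
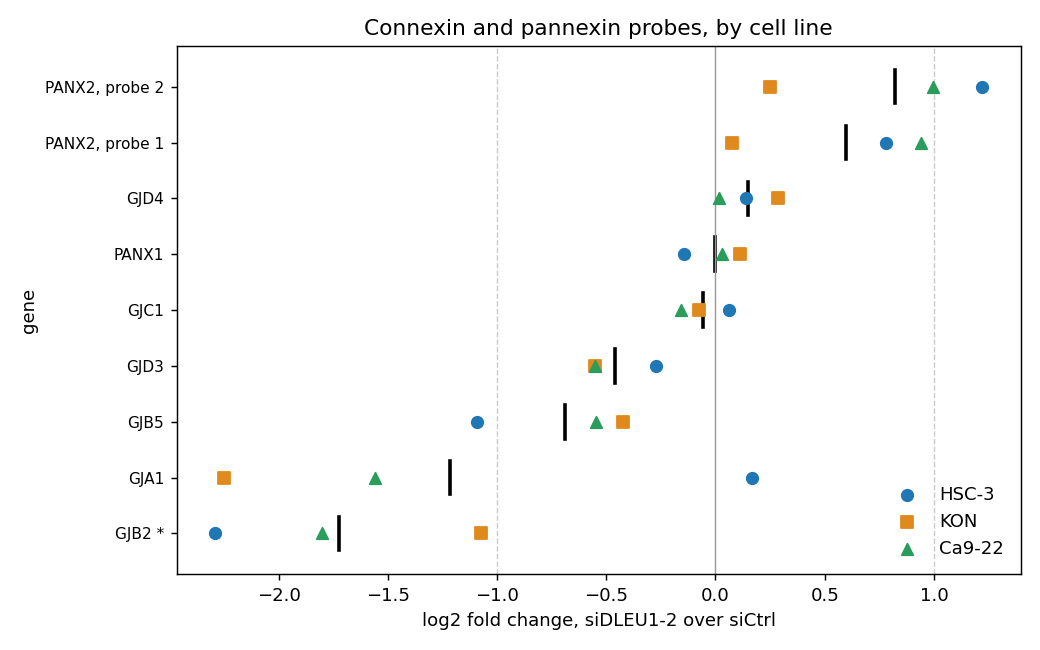
Log2 fold change of siDLEU1-2 over siCtrl (horizontal axis) for connexin and pannexin probes kept, with some of the family not shown (vertical axis). Points are the 3 cell lines, black bars their mean, dashed lines 2-fold, and the star marks the probe called by limma. GJB2, GJA1, and GJB5 have the 3 lowest means, and GJB2 alone lies beyond 2-fold in every line, with its Ca9-22 point from an array not well above background.

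Of the other gap junction genes, 20 connexins and pannexins, 19 were on the array with 25 probes. Only 10 probes of 8 genes were kept, and 9 probes were well above background on no array. limma called 0 of the 10, beside 4.52% lower and 3.98% higher over all probes kept, and 4 had an unadjusted p below 0.05, as did 29.5% of all probes kept. The count was 0 under every alternative run. Several of these could not have given another count, since they called 0 of all probes. They were the methods' t-test, no filter, the fit without the cell line term, and the fits without HSC-3 or without KON. Their median log2 fold change was 0.38, and the lowest mean was -0.46, for GJD3 (adjusted p = 0.119). The 3 lowest mean changes among all connexin and pannexin probes kept were those of GJB2, GJA1, and GJB5.

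The partners and regulators of gap junctions are proteins that bind connexins or act on the junction. Of 30 genes, 29 had a probe kept, and of 41 probes limma called 6 higher and 0 lower, beside 3.98% higher and 4.52% lower over all probes kept. Called probes were 0 without HSC-3 or without KON, where limma called 0 of all probes kept, and 3 without Ca9-22. CDH1, the E-cadherin of adherens junctions, rose by a mean of 2.92 on the log2 scale (adjusted p = 0.0227). Its signals were 2330, 2895, and 2542 on the siCtrl arrays and 18639, 21027, and 15975 on the siDLEU1-2 arrays of HSC-3, KON, and Ca9-22. TJP1, the zonula occludens protein that binds the tail of Cx43, rose by 0.74 (adjusted p = 0.0491), a call lost with quantile normalization and with both other centerings (adjusted p = 0.0541 to 0.0611). For HSC-3, KON, and Ca9-22, the TJP1 log2 fold changes were 0.74, 0.60, and 0.89. A relation of TJP1 to the connexin changes was not tested.

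OCLN, which encodes the tight junction protein occludin, rose by 2.51 at one probe (adjusted p = 0.0227). Its other probe, not called (adjusted p = 0.190), gave 2.60, 2.80, and -0.37 for HSC-3, KON, and Ca9-22. TJP3, another zonula occludens protein, rose by at least 3.68 on the log2 scale, with dim values at the floor (adjusted p = 0.0245). Its siCtrl signals of 7.22 in KON and 11.3 in Ca9-22 were not well above background, and it was at least 30.1-fold and 5.70-fold higher there. Of the kinases that phosphorylate connexins, those named here were not called, with PRKCA at 0.52, PRKCD at 0.18, SRC at -0.62, and MAPK3 at 0.17.

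Among 13 transcription factors known at connexin or keratinocyte genes, 13 probes of 12 genes were kept, and limma called 2 lower and 1 higher, beside 4.52% lower and 3.98% higher over all probes kept. Without HSC-3 or without KON, limma called 0 of all probes kept (4547 and 4676 at an unadjusted p below 0.05). TP63, the master regulator of stratified epithelium, fell by 2.46 (adjusted p = 0.0227), with all 3 lines between -2.35 and -2.68. Its signal was 370, 231, and 191 on the siCtrl arrays of HSC-3, KON, and Ca9-22 and 65.8, 43.3, and 28.8 after siDLEU1-2, the last not well above background, so that the fall in Ca9-22 was at least 6.39-fold. SP3, a factor that binds GC boxes, fell by 0.93 (adjusted p = 0.0322), and SP1, its close relative, gave 0.07 and was not called. SNAI1, a repressor of CDH1, rose by 1.58 (adjusted p = 0.0459), with its siCtrl signal in HSC-3 not well above background and a rise there of at least 3.79-fold. GATA3 was over 2-fold higher in all lines, with a mean of 2.21, and just missed the limma threshold (adjusted p = 0.0501).

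**Figure D4:**
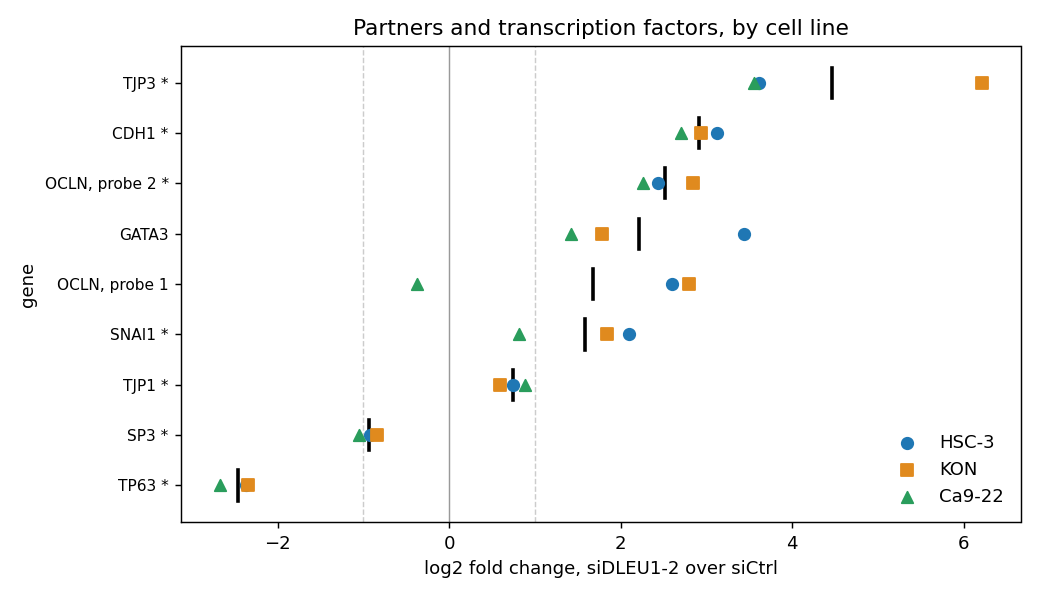
Log2 fold change of siDLEU1-2 over siCtrl (horizontal axis) for the gap junction partners and transcription factors named for a limma call or a 2-fold change in all lines, with the other OCLN probe (vertical axis). Points are the 3 cell lines, black bars their mean, dashed lines 2-fold, and stars mark probes called by limma. TP63 and SP3 lie below 0 in every line, and CDH1 and TJP1 lie above 0 in every line.

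Markers of the cells were measured on the same arrays, and their counts stand beside the 4.52% called lower and 3.98% called higher over all probes kept. Of 10 basal keratinocyte probes, limma called 2 lower, TP63 and ITGB4 (mean -2.73, adjusted p = 0.0247), 0 higher, and 8 in neither direction. The summed signal of the basal list was 62589 to 278124 on the siCtrl arrays and 31356 to 82463 on the siDLEU1-2 arrays, lower in each line. Single basal probes went the other way in a line, none of them called. Log2 fold changes were 1.47 for a KRT14 probe and 1.34 for KRT17 in Ca9-22, and 0.66 for KRT15 in KON. The summed signals of the other epithelial lists were higher after siDLEU1-2 in each line. For the suprabasal list, they were 15892 to 18904 on the siCtrl arrays and 18960 to 20102 on the siDLEU1-2 arrays. For epithelium in general, they were 76183 to 250513 and 163644 to 430876. Of 11 suprabasal probes, 4 were kept and 1 was called lower (adjusted p = 0.0362), that of IVL, the cornified envelope protein involucrin. IVL was well above background on the 3 siCtrl arrays and on no siDLEU1-2 array. Its bounds were at least 1.57-fold lower for HSC-3 and at least 1.21-fold for Ca9-22, with none for KON. With dim values at the floor, an alternative chosen after seeing the data, it was not called (adjusted p = 0.352). None of the 3 probes of FLG, which encodes filaggrin of the upper layers, was kept, and in HSC-3 they were at least 4.45-fold, 6.64-fold, and 26.6-fold higher after siDLEU1-2. In Ca9-22, the same probes were at least 6.07-fold, at least 9.56-fold, and 14.5-fold higher, and in KON they were well above background on neither array. Of 8 probes for epithelium in general, 4 were called higher, of CDH1, KRT8, and KRT18. The 1 fibroblast probe kept, COL1A1, was called higher (mean 1.45, adjusted p = 0.0423). The part of these markers in the GJB2 result was not tested.

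The promoters are shown because SP3 and AP-1 factors were among those measured. The sequences are the 250 bases before the gene start in RefSeq on GRCh38.p14, 5′ to 3′ on the strand of the gene. Capitals mark GGGCGG or its complement CCGCCC, the GC box, in GJB2 and TGANTCA, the AP-1 motif, in GJA1.
GJB2 promoter (chr13:20192939-20193188, minus strand): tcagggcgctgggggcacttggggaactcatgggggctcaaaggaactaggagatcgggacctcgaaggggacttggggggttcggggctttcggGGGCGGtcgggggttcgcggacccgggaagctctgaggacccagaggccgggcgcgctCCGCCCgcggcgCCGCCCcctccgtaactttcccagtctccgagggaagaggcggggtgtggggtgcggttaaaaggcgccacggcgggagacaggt
GJA1 promoter (chr6:121435396-121435645, plus strand): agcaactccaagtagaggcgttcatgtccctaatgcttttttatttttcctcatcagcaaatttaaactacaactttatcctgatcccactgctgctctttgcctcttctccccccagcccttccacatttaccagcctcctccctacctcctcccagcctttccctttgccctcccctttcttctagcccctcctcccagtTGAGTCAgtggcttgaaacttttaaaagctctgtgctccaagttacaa
The GJB2 window holds 3 GC boxes, which begin 155, 97, and 85 bases before the start, and the GJA1 and GJB6 windows hold 0. On either strand, 42.6% of 35116 RefSeq promoter windows hold at least 1. The GJA1 window holds 1 AP-1 motif, beginning 48 bases before the start, which 6.6% of windows hold, and GJB2 and GJB6 have 0. The AP-2 motif GCCNNNGGC occurs 1 time in GJB2, overlapping a GC box, and in 19.8% of windows. CACCTG, bound by Snail factors, and TATAAA were in none of the 3 windows, against 17.5% and 10.7% of all windows. GC content was 70.0% for GJB2, 48.0% for GJA1, and 50.8% for GJB6, against a median of 58.0%. GJB5 had no promoter to print. These matches describe the letters of the windows and were not tested for binding. FOSL1 and JUN, members of AP-1, had mean log2 fold changes of -0.73 (adjusted p = 0.0988) and 0.61 (adjusted p = 0.0901) and were not called.

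Genes whose pattern over the 6 arrays was most like that of a connexin were found by the root mean square difference of centered log2 values. Closest to GJB2 were HOXB6 (0.39), KRT14 (0.39), XAF1 (0.65), KLK9 (0.66), and ASCL2 (0.72). These distances use the Ca9-22 knockdown level of GJB2, which lay 1.63 below the floor on the log2 scale. With dim values at the floor, also chosen after seeing the data, the 5 closest were the same genes in another order, at distances of 0.38 to 0.70, with KRT14 the fourth at 0.65. Of these, KRT14 encodes a keratin of basal keratinocytes, and its log2 fold changes were -3.01, -0.99, and -1.16 at this probe. Another KRT14 probe gave -2.77, -1.07, and -0.87 (adjusted p = 0.0868), the last from a siDLEU1-2 array not well above background. The remaining one gave -1.14, -0.31, and 1.47 (adjusted p = 0.994), and limma called none of the 3. Closest to GJB5 were TTC39C (0.09), NEAT1 (0.13), TIMM8A (0.13), SERINC2 (0.15), and IFNGR2 (0.16). Closest to GJA1 were FMNL3 (0.30), ZFPM1 (0.32), SNN (0.35), C17orf97 (0.39), and IFNAR1 (0.40), of which 4 remained at the floor, where RBM24 (0.24) was closest. No gene was among the 5 closest of more than one connexin. GJB6 had no such list, since its probe was not kept.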

How the data were processed

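HSC-3, KON, and Ca9-22 cells received siCtrl or siDLEU1-2, with 1 array each, and the arrays shared 1 slide. The authors deposited spot intensity from Agilent Feature Extraction (10.7 in the submitters' processing notes and 10.7.3.1 in the file header), with the background subtracted by the software and no normalization between arrays. Probe coordinates come from the files (hg19).

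Each probe was given the mean log2 of its processed intensity over spots, without control spots or outliers, minus the 75th percentile of its array. Of 50599 probes, 55 lacked a usable spot on some array. limma 3.58.1 (R 4.3.3) had terms for siRNA and cell line, with Benjamini-Hochberg adjustment over 19956 probes. The line serves as the block, since siCtrl and siDLEU1-2 were given to the same line, and the deviations of the 2 arrays correlated at 0.83, 0.81, and 0.82. Each line gave 1 sample per siRNA, and the number of arrays limits the precision. No exact permutation test was used for single genes, as 3 pairs allow no two-sided p below 0.25. In simulated data for this comparison (19956 probes, of which 200 had a log2 change of 1.5), 183 of the changed probes (91.5%) and 22 others were called.

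The connexins and gene lists were chosen with earlier results of these data known. Every member and its connexin neighbors were named, as were list genes called by limma or over 2-fold one way in all lines, DLEU1, and the 5 probes most like each member, except for some genes and a probe sequence that are counted but not reported here. Kinases, marker genes, SP1, FOSL1, JUN, and GJD3 were named after their values were seen. Where a group of arrays was dim, folds are bounds against the higher of the dim value itself and the lowest signal well above background on its array.

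The alternatives were quantile normalization, other centerings, normexp (offset 50), the series table of the authors, other filters, dim values at the floor, the methods' t-test, a fit without the block, leaving out each line, gene means, and a 3-fold threshold. The series table holds the same intensity, rounded, within 0.497%. Promoters and names came from RefSeq tables (GRCh38.p14), with 3 of the 4 connexins matched in the promoter table, and siRNA bases from the supplement of the study.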

Additional observations from a re-analysis of the deposited data

Results flagged for a closer look

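GJA1 had log2 fold changes of -2.25 in KON and -1.56 in Ca9-22, and of 0.17 in HSC-3, so that the signs differed between lines. The HSC-3 signals were 138 and 143, and the scanner software put the error of these single spots at 10.5% and 10.4% of the signal, so no direction is read from HSC-3. Each line has 1 pair of arrays, and the difference between lines was not tested.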

How the results depend on the processing

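The mean changes of the connexins, DLEU1, and the partners and factors named for a call or a 2-fold change kept their sign under every alternative run that could test them. GJB2, the 1 connexin called lower by limma, fell to 0 called with normexp, with probes well above background on all arrays (GJB2 is then not tested), with no filter, with dim values at the floor, without the replicate block, and with the methods' t-test, and to 0 whichever line was left out. Without HSC-3, KON, or Ca9-22 its adjusted p was 0.101, 0.103, and 0.0968. The 1 connexin over 2-fold lower in all lines became 0 with normexp, with the all-arrays filter, at the floor, and at 3-fold, and ran from 1 to 2 with a line left out, counting the dim Ca9-22 value of GJB2 as measured. The 2 connexins that differed between lines became 1 when the percentile was taken over probes detected everywhere, with the all-arrays filter, and with no filter, and ran from 1 to 2 with a line left out, where GJB5 lost its call without Ca9-22. The 6 partner probes called became 10 with normexp, and 0 with no filter, without the block, and with the methods' t-test, and ran from 0 to 3 with a line left out.

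Over all probes, limma called 0 without the block (1357 at an unadjusted p below 0.05), 0 by the methods' t-test (1373), 0 with no filter (6816), 0 without HSC-3 (4547) or KON (4676), and 117 lower and 127 higher without Ca9-22. Against 902 lower and 795 higher, centering on the median gave 1069 lower and 639 higher. With normexp, 181 probes were over 2-fold lower and 214 higher. GATA3 passed the limma threshold under 5 alternatives. Signal over background limits GJB2 in Ca9-22 and GJB6 in KON and Ca9-22.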
